A study of Rattus norvegicus with 30 samples.

Results

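The mRNA levels of 4 genes, Cd24, Cd9, Mest and Rdh7, were followed in rat hepatocytes exposed to beta-naphthoflavone (BNF). They were taken from 14217 genes with a named probe set for a marked change at 100 µM, described in the choice as mostly at 48 h. By the values below, the 100 µM effect was clearly larger at 48 h for Rdh7. It was close at both times for Cd24 and Mest and opposite in direction for Cd9. The genes were thus chosen by their signals at 100 µM, and those values are given as a description without a test, while differences at 1 µM and over culture time are tested. The rule of choice did not use the 1 µM arrays. The vehicle arrays entered it as the reference for 100 µM, so tests against vehicle, or within vehicle over time, are not fully independent of it. The change over time at 1 µM shares no arrays with the rule, but earlier results of these data were known when the genes were chosen. Each gene was measured by 1 probe set, so the 4 genes rest on 4 of 20826 probe sets with a single gene symbol. BNF is a synthetic flavone that binds the aryl hydrocarbon receptor (AhR). The cells were purchased frozen hepatocytes of male Sprague Dawley rats, plated on collagen under a Matrigel overlay and dosed once on the 3rd day of culture. The 6 groups received vehicle (1% DMSO), 1 µM BNF or 100 µM BNF and were harvested after 24 or 48 h, with 5 arrays from 5 separate wells in each group and 30 arrays in all. How many animals supplied the cells is not given in the sources used here, so p-values measure the spread between wells.

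Cd24 is a small, heavily glycosylated protein held at the cell surface by a lipid anchor, and in liver it is known as a marker of progenitor and bile duct cells. Cd9 is a tetraspanin, one of a family of proteins that cross the membrane several times and organise integrins and other partners into clusters. Mest is an imprinted gene, expressed from the paternal copy, whose product belongs to the alpha/beta hydrolase fold family. It is active in embryonic tissue and in growing adipose tissue. Rdh7 encodes a microsomal retinol dehydrogenase of the short-chain dehydrogenase family, and such enzymes oxidise retinol or related steroids in hepatocytes. AhR works as a transcription factor: once it has bound a ligand it enters the nucleus, pairs with Arnt and binds DNA at a short core sequence, GCGTG.

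The 250 bases before the start of each gene, from RefSeq (GRCr8), are shown because the compound acts through a receptor with a known DNA core. Of the 4 genes 4 matched the promoter table. Capitals mark GCGTG on either strand, so that CACGC is the same core read on the other strand.
Cd24, chr20:48656227-48656476, plus strand: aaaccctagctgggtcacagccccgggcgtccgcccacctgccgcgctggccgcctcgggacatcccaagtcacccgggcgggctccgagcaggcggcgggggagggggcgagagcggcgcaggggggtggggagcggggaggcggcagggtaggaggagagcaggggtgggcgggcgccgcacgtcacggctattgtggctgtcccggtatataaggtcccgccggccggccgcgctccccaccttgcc
Cd9, chr4:159975359-159975608, minus strand: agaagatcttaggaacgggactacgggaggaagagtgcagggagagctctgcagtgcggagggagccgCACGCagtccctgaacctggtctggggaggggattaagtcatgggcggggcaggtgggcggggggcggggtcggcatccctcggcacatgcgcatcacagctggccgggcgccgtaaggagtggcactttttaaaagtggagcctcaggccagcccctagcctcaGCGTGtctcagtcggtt
Mest, chr4:60321564-60321813, plus strand: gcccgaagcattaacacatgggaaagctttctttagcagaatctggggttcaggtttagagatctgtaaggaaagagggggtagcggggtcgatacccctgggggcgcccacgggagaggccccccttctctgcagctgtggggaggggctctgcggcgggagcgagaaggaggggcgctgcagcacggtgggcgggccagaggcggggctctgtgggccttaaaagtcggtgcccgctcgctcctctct
Rdh7, chr7:65574619-65574868, minus strand: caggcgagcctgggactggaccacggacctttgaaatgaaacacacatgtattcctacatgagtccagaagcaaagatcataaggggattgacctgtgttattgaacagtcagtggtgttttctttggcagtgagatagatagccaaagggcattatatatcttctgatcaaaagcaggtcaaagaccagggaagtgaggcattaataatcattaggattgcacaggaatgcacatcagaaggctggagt
The core was found at 2 places before Cd9, starting 182 and 17 bases before the start, without overlap, and at 0 places before Cd24, Mest and Rdh7. It occurs in 25.9% of 33465 promoters of that length. The longer form TNGCGTG, searched on both strands, was in 0 of the 4 windows and in 4.09% of all promoters. TGACNNNGC, the core of the antioxidant response element, was found once on either strand, 242 bases before the start of Cd24, and is in 10.1% of all promoters. The Cd24 window lies inside the annotated span of the gene and the Cd9 window partly so, since the promoter table uses 1 transcript start per gene. GC content was 75.6% before Cd24, 64% before Cd9 and Mest, and 44% before Rdh7. A match in these letters is a description of the window and was not tested as a binding site.

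The genes lie on different parts of the genome in GRCr8: Cd24 on chromosome 20 (48655549 to 48661786), Cd9 on chromosome 4 (159942553 to 159975463), Mest on the same chromosome (60321814 to 60332288) and Rdh7 on chromosome 7 (65561259 to 65574618). Array medians ran from 338 to 429 on a scale where each array had been set to a trimmed mean of about 1501. Cyp1a1, the classical AhR target, had a mean signal of 11832 in vehicle, 44100 at 1 µM and 59383 at 100 µM at 24 h, in the direction the labels imply. At 48 h the means were 9525, 22607 and 50727 in the same order. The 1 µM arrays at 48 h, from 14997 to 27250, overlapped those of vehicle, from 6211 to 16365. Precision is limited by the 5 arrays per group. The hepatocyte markers had 9 of 9 measured members above the median gene. Markers of endothelial cells and of lymphocytes had 0 of 10 above it in each list, with summed signals between 1293 and 3190 and between 1614 and 2818 on the 30 arrays.

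Cd24 was low in the signal range in vehicle, at percentiles 10.3 and 16.4 of the gene means at 24 and 48 h. At 100 µM it stood at percentile 36.6 at 24 h and reached mid-range, percentile 51.4, at 48 h. Its signals in vehicle at 24 h were 12.1, 73.8, 81.6, 105 and 106 on the 5 arrays. At 1 µM for 24 h they were 59.9, 72.5, 76.1, 81.8 and 213, and at 100 µM for 24 h they were 344, 422, 456, 477 and 495. The 5 arrays at 100 µM stood above all 10 others of that time, while the vehicle and 1 µM arrays overlapped. At 48 h the vehicle signals were 74.7, 92.9, 126, 142 and 158. The 1 µM signals were 145.5, 154, 159, 181 and 234, and the 100 µM signals were 773, 840.1, 883, 1017 and 1063. Again only the 100 µM group was clear of the others, and the lowest of its arrays was more than 3 times the highest array at 1 µM.

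At 100 µM the mean of log2 Cd24 signal exceeded vehicle by 2.85 (SE 0.40), or 7.19-fold, at 24 h and by 2.99 (SE 0.40), or 7.94-fold, at 48 h. At 48 h 1 of 14217 genes, Cd24 itself, had a difference that large and positive, and at 24 h 3 genes did. The difference between the effects at the 2 times was 0.14 on the log2 scale, with a 95% confidence interval from -1.02 to 1.30, so the estimates at both times were close while the interval was wide. Its fold at 24 h is limited by the low vehicle signal: the vehicle mean lay at percentile 10.3 of the gene means of its group, and adding 32 to all signals before log2 gave 2.22. Leaving out vehicle replicate 5, the array at 12.1, gave 2.27. At 1 µM, where limma tested the change across all genes (p adjusted by Benjamini-Hochberg and called, or passing, below 0.05), Cd24 was 0.56 higher (SE 0.40; adjusted p = 0.513) at 24 h and 0.59 higher (SE 0.40; adjusted p = 0.616) at 48 h, neither of which passed. The 95% confidence interval of the second ran from -0.23 to 1.41. Over culture time in vehicle Cd24 was 0.92 higher at 48 than at 24 h (SE 0.40; adjusted p = 0.125), which dropped to 0.34 (adjusted p = 0.511) without vehicle 24 h replicate 5, and at 1 µM it was 0.94 higher (SE 0.40; adjusted p = 0.132). The last of these passed without 1 µM 24 h replicate 4, the array at 213 (difference 1.26, adjusted p = 0.0324).

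In order of level, Cd24 was lowest in vehicle at 24 h, followed by 1 µM at 24 h, vehicle at 48 h, 1 µM at 48 h, 100 µM at 24 h and 100 µM at 48 h. The first 3 of these groups did not differ from each other in turn beyond the larger SD, and vehicle and 1 µM at 48 h were 0.59 apart with overlapping ranges. From 1 µM at 48 h upwards the neighbours did not overlap, with steps of 1.34 and 1.06 on the log2 scale. Cholangiocyte markers, fixed as a list because Cd24 also marks bile duct cells, had 10 of 12 members measured and 2 above the median gene. Their summed signal ran from 14169 to 15725 in vehicle at 48 h and from 11811 to 12195 at 100 µM, but this sum is carried by Epcam, by level the highest of the 10 (percentile 91.8) and the 1 marker called lower at 48 h. At 24 h Slc4a2 was the 1 marker called, lower. The called share of the list was 10% at each time, against 21.1% and 17.4% of all genes. Its median log2 difference at 100 µM was 0.02 at 24 h and -0.13 at 48 h, against 0.04 and 0.02 over all genes. The defining bile duct keratins Krt7 and Krt19 lay at percentiles 0.584 and 3.26 of the gene means, with log2 differences of 0.42 (SE 0.39) and 0.73 (SE 0.68) at 100 µM and 48 h that did not pass. Spp1 was also higher there without passing (0.84, SE 0.58), and all other measured markers of the list had negative differences. The part of bile duct cells in the Cd24 result was not tested. Array signal measures RNA in a whole well, so fewer cells of a type and less RNA per cell cannot be told apart.

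Cd9, the tetraspanin, was an abundant transcript whose response to 100 µM had opposite directions at the 2 times. In vehicle at 24 h its signals were 6571, 7991, 8169, 8404 and 8717. The 1 µM signals at 24 h were 7418, 7683.5, 7711, 7862 and 8262, and the 100 µM signals were 10578.5, 11250.4, 11792, 11807 and 12584. All 5 arrays at 100 µM stood above every other array of that time. After 48 h the vehicle arrays were at 4541, 5422.5, 5794, 6654.5 and 9097. At 1 µM they were at 4889.5, 5360.5, 5655, 6218 and 6873, and at 100 µM at 4196, 4209.9, 4330.5, 4368 and 4589.7. The 100 µM group was now the lowest and the tightest, and its highest array overlapped the lowest vehicle array.

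Against vehicle Cd9 at 100 µM was 0.55 higher (SE 0.11; 1.46-fold) at 24 h and 0.50 lower (log2 difference -0.50, SE 0.11; 1.41-fold) at 48 h. The effects at the 2 times were 1.04 apart (log2 difference -1.04, 95% confidence interval -1.36 to -0.73). These sizes are moderate for the table, since 7.27% of genes rose as far at 24 h and 9.02% fell as far at 48 h. At 1 µM the tested differences were -0.03 (SE 0.11; adjusted p = 0.943) at 24 h and -0.09 (SE 0.11; adjusted p = 0.828) at 48 h. Their 95% confidence intervals were -0.25 to 0.20 and -0.32 to 0.14. Without the compound Cd9 fell between 24 and 48 h by 0.37 on the log2 scale (SE 0.11; adjusted p = 0.0171), and at 1 µM it fell by 0.43 (SE 0.11; adjusted p = 0.0062). The fall in vehicle did not pass when only these 2 groups were fitted (adjusted p = 0.116), nor without vehicle 48 h replicate 2 (difference -0.26, adjusted p = 0.0907) or replicate 4 (difference -0.33, adjusted p = 0.0571). The groups in vehicle overlapped, with the 48 h array at 9097 above all 5 arrays of 24 h, whereas the groups at 1 µM did not overlap.

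Ranked by level, Cd9 was lowest at 100 µM and 48 h, then came 1 µM and vehicle at 48 h, 1 µM and vehicle at 24 h, and 100 µM at 24 h. The 4 groups in the middle did not differ from their neighbours beyond the larger SD, and the groups at 100 µM at either end did. Of Kupffer cell markers 13 of 15 were measured, 6 above the median gene. Their summed signal ran from 24160 to 28336 in vehicle and from 27449 to 31335 at 100 µM at 24 h. At 48 h these sums ran from 19913 to 22547 and from 16814 to 17885. Cd14, a lipopolysaccharide co-receptor that carries much of this sum, was called higher at 24 h (log2 difference 0.24, adjusted p = 0.0143) and lower at 48 h (-0.24, adjusted p = 0.0153), Lyz2 was called lower at 48 h (-0.62, adjusted p = 1.22e-05), and the other 11 markers passed at neither time. The called share of the list was 7.69% at 24 h and 15.4% at 48 h, against 21.1% and 17.4% of all genes. Its median log2 difference was 0.07 and -0.24, against 0.04 and 0.02 over all genes. Stellate cell markers, with 17 of 17 measured and 4 above the median gene, summed to between 12625 and 19407 in vehicle and between 9215 and 11030 at 100 µM at 24 h. The same sums were 7649 to 13291 and 6197 to 7675 at 48 h. They are carried by Vim, lower by log2 differences of -1.71 and -2.47 at 24 and 48 h (limma adjusted p = 1.68e-06 and 1.68e-09), and Lox, at -1.32 and -1.30 (adjusted p = 5.83e-05 and 8.04e-05). Besides these, Lrat was called lower at 24 h, and 14 of 17 markers at 24 h and 15 of 17 at 48 h were not called. The list's median was higher than that of all genes, 0.09 against 0.04 at 24 h and 0.24 against 0.02 at 48 h. The part of either cell type in the Cd9 result was not tested.

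Mest, the imprinted gene, rose with time in culture as well as with 100 µM BNF. In vehicle at 24 h its signals were 31.3, 64, 84.5, 174 and 193. They were 109, 142, 201, 202.5 and 243 at 1 µM and 255, 293, 333.5, 345 and 360 at 100 µM. The 3 groups at 24 h stepped upwards, and the 100 µM arrays stood clear of both others. By 48 h vehicle wells had reached 308, 341.5, 392, 455 and 462. Wells at 1 µM were at 370.4, 418, 467, 546 and 550.3, and wells at 100 µM were at 1277, 1405, 1434, 1523 and 1525. Vehicle and 1 µM overlapped at 48 h, while every array at 100 µM was far above any other.

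The tested change of Mest over time in vehicle was 2.11 on the log2 scale (SE 0.31; limma adjusted p = 7.20e-06), or 4.33-fold between group means. All 5 arrays of 48 h lay above all 5 of 24 h. In this comparison 15 of 14217 genes, Mest among them, had risen as far. At 1 µM the rise over time was 2.69-fold (log2 difference 1.43, SE 0.31; adjusted p = 0.00138). Against vehicle Mest at 1 µM was 0.95 higher at 24 h (SE 0.31; adjusted p = 0.0803), with 5 of 5 arrays above the vehicle median, and 0.27 higher at 48 h (SE 0.31; adjusted p = 0.816). The difference at 24 h did not pass, though it passed without 1 µM 24 h replicate 2 (adjusted p = 0.0462) and without vehicle 24 h replicate 4 (adjusted p = 0.0267) or replicate 5 (adjusted p = 0.0177). The 100 µM effect was 1.82 (SE 0.31; 3.52-fold) at 24 h and 1.89 (SE 0.31; 3.70-fold) at 48 h, and these effects were 0.07 apart, with a 95% confidence interval from -0.83 to 0.97. From vehicle at 24 h to 100 µM at 48 h the Mest difference was 4.00 on the log2 scale. Low signals limit these sizes, since the 24 h vehicle group ranked at percentile 14 among all genes there, and adding 32 before log2 gave 1.72 for the change over time and 1.45 for the 100 µM effect at 24 h.

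The order of Mest levels was vehicle, 1 µM and 100 µM at 24 h and then vehicle, 1 µM and 100 µM at 48 h. Vehicle and 1 µM at 24 h did not differ beyond the larger SD. The steps of 0.30 from 100 µM at 24 h to vehicle at 48 h and of 0.27 from there to 1 µM at 48 h were slightly beyond the larger SD, 0.26, and their ranges overlapped.

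**Figure D1:**
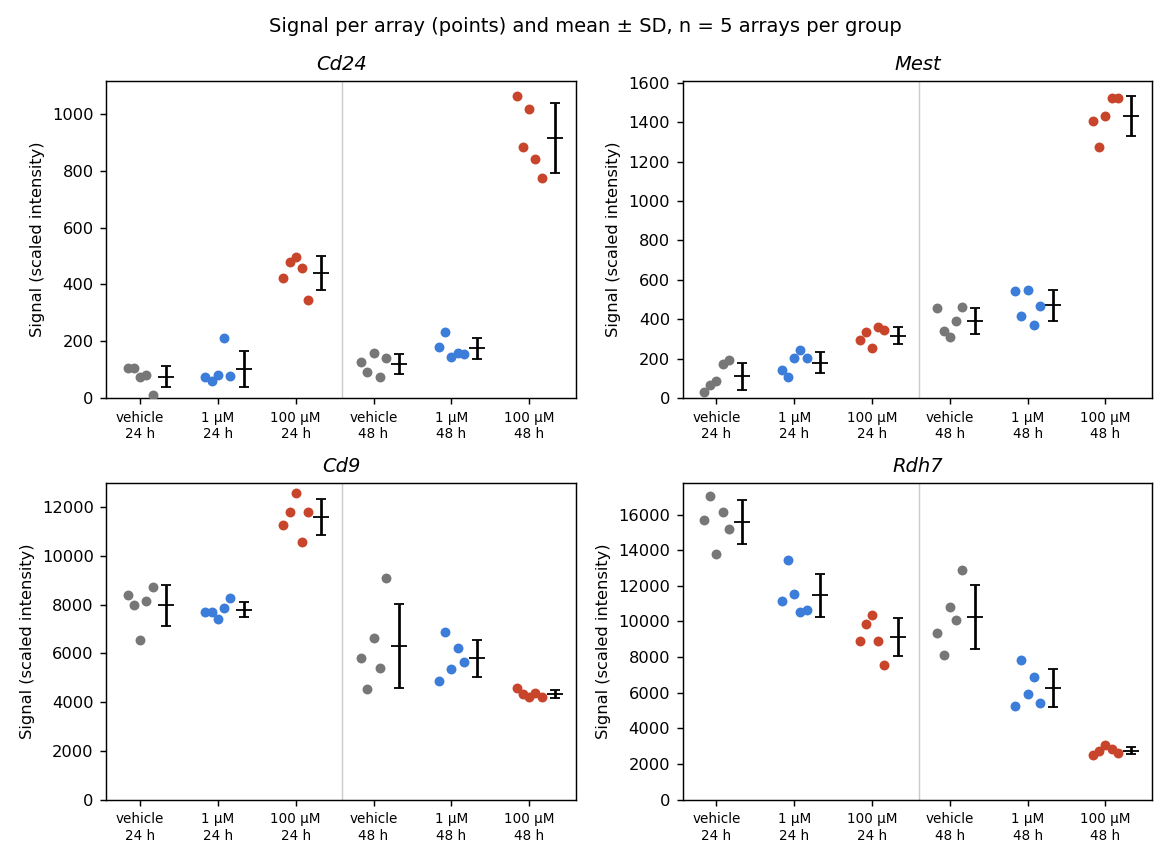
Signal of Cd24, Mest, Cd9 and Rdh7 on each of the 30 arrays (points, linear axis from 0), with mean and SD of the 5 arrays of each group beside them. Cd24 and Mest reach 1063 and 1525 at 100 µM and 48 h, Cd9 rises to 12584 at 100 µM and 24 h and lies between 4196 and 4589.7 at 48 h, and Rdh7 falls to between 2531 and 3049.

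Rdh7, the retinol dehydrogenase, fell with dose and with time, and it was the 1 gene of the 4 called at 1 µM. Its vehicle signals at 24 h were 13785, 15191, 15721, 16127 and 17058. At 1 µM they were 10518, 10643, 11174, 11538 and 13475, and at 100 µM they were 7566, 8897, 8929.7, 9873 and 10347. The 3 groups at 24 h formed a descending series with no overlap. At 48 h vehicle arrays held 8114, 9329, 10109, 10820.3 and 12870.3. Those at 1 µM held 5279, 5451, 5914, 6870.1 and 7834, and those at 100 µM held 2531, 2625, 2718, 2872 and 3049. The same descending order was seen without overlap, from a lower starting level.

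In the limma fit Rdh7 fell at 1 µM by 0.44 on the log2 scale at 24 h (SE 0.10; 1.36-fold; adjusted p = 0.0109) and by 0.71 at 48 h (SE 0.10; 1.63-fold; adjusted p = 0.000209). It was the 1 member of 4 called in each of these comparisons, against 4.3% of all genes at 24 h and 0.809% at 48 h. The 100 µM group shares its vehicle arrays with these comparisons, so the 2 doses are given side by side: at 100 µM the difference was -0.78 (SE 0.10; 1.71-fold) at 24 h and -1.88 (SE 0.10; 3.68-fold) at 48 h. The change at 1 µM was 57.2% of that at 100 µM at 24 h and 37.7% at 48 h on the log2 scale. For Mest these shares were 52.4% and 14.1%, and for Cd24 19.8% and 19.7%. The Cd24 share at 24 h rests on a 1 µM difference that was -0.016 without vehicle 24 h replicate 5. The shares were not compared by a test. Between the times the 100 µM effect on Rdh7 differed by -1.10 (95% confidence interval -1.41 to -0.80) and the tested 1 µM effect by -0.26 (SE 0.15; adjusted p = 0.603), which did not pass.

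In vehicle Rdh7 fell 1.53-fold between 24 and 48 h (log2 difference -0.62, SE 0.10; adjusted p = 5.64e-05), and at 1 µM it fell 1.84-fold (log2 difference -0.88, SE 0.10; adjusted p = 2.60e-07). Over time 3 of the 4 genes were called in vehicle, Mest higher and Cd9 and Rdh7 lower, where 17.2% of all genes were called. The same 3 were called over time at 1 µM, where 13.5% were. The tested difference of the 1 µM effect between times was called for 0 of the 4 genes, also at an unadjusted p of 0.05 (0 of 4), and for 0.0914% of all genes. From lowest to highest, Rdh7 was ordered as 100 µM and 1 µM at 48 h, 100 µM at 24 h, vehicle at 48 h, 1 µM and vehicle at 24 h. The groups 100 µM at 24 h, vehicle at 48 h and 1 µM at 24 h did not differ from their neighbours among these beyond the larger SD. Of 9 measured hepatocyte markers, 3 were called lower at 100 µM and 24 h and 5 at 48 h (33.3% and 55.6%, against 21.1% and 17.4% of all genes), with medians of -0.13 and -0.22. Cps1, the urea cycle enzyme that fixes ammonia, was 2.11-fold lower at 48 h (limma adjusted p = 1.17e-11), while Alb, albumin, had a difference of -0.08 (SE 0.09; adjusted p = 0.658). The summed signal ran from 404035 to 497537 in vehicle and from 320956 to 402870 at 100 µM at 48 h. Over time in vehicle 4 of 9 markers were called lower (44.4%, against 17.2% of all genes). The part of hepatocyte content in the Rdh7 result was not tested.

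Groups without overlap were also counted for the 4 genes. At 1 µM against vehicle these were 1 of 4 genes, Rdh7, at each time, beside 5.2% of all genes at 24 h and 2.62% at 48 h. Over time they were 2 of 4 in vehicle, Mest and Rdh7, beside 11.6%, and 3 of 4 at 1 µM beside 11.2%. At 100 µM, where the choice of genes used the arrays, the vehicle group was cleared by 4 of 4 at 24 h (14.8% of all genes) and 3 of 4 at 48 h (13.3%), and the 1 µM group by 4 of 4 at both times (7.58% and 10.9%). Rdh7 has close relatives in the rat genome, and how far its probe set shares sequence with them was not examined.

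**Figure D2:**
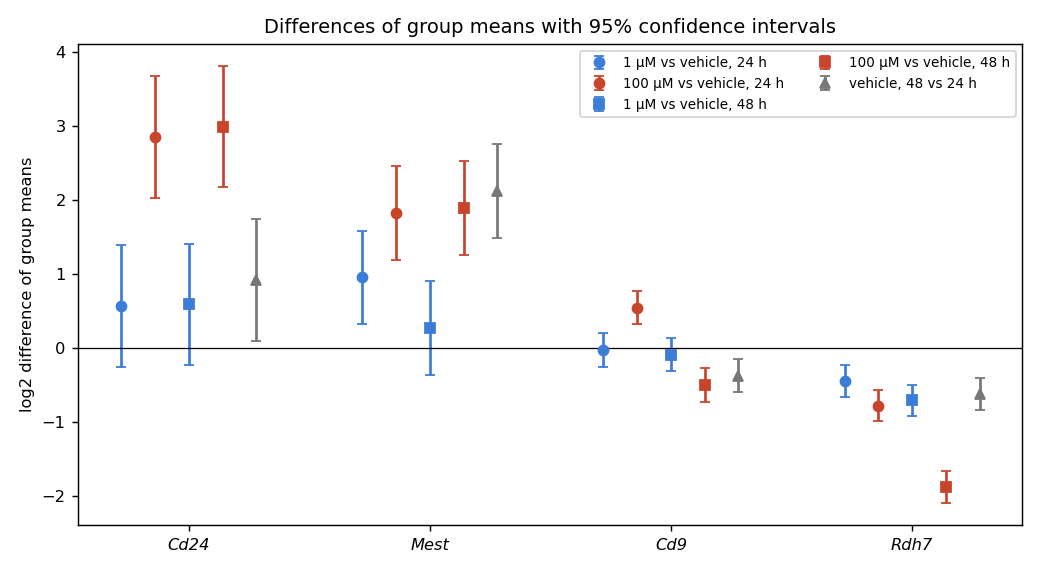
Differences of group means on the log2 scale with 95% confidence intervals from the fit of all 30 arrays, for 1 µM (blue) and 100 µM (red) against vehicle at 24 h (circles) and 48 h (squares), and for vehicle at 48 against 24 h (grey triangles). The 100 µM effects on Cd24 (2.85 and 2.99) and Mest (1.82 and 1.89) are alike at both times, that on Rdh7 grows from -0.78 to -1.88, and that on Cd9 turns from 0.55 to -0.50.

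The 4 genes could also be compared between arrays of the same group, which the choice of genes did not use. After each array's value was set against its group mean, Cd9 and Rdh7 varied together over the 30 arrays, with Pearson r = 0.69 (permutation p = 0.00097 with arrays permuted within groups, adjusted p = 0.00582 over 6 pairs). Spearman's rho was 0.51 (permutation p = 0.0166, adjusted p = 0.0994), which did not pass after adjustment. Without the 2 arrays farthest from the median of Cd9, vehicle 48 h replicates 5 and 2, r was 0.53. Without the 5 arrays of vehicle at 48 h it was 0.53 over 25 arrays. Pooled over the groups, wells high in Cd9 tended to be high in Rdh7, but not in each group. The value of r was 0.96 and 0.93 in vehicle and 1 µM at 48 h, over 5 arrays each. It was 0.66 in vehicle and 0.36 in 100 µM at 24 h, -0.47 in 1 µM at 24 h and -0.55 in 100 µM at 48 h. A background of within-group r over all genes is not given here, and Igf1 and Thrsp had a higher one with Rdh7 (0.87 and 0.73). Vehicle 48 h replicates 5 and 2 also had the highest and lowest Cyp1a1 signals of their group, 16365 and 6211. Whether these wells differed as a whole was not tested. The other 5 pairs had r between -0.36 and 0.16, with adjusted permutation p from 0.57 to 0.90.

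**Figure D3:**
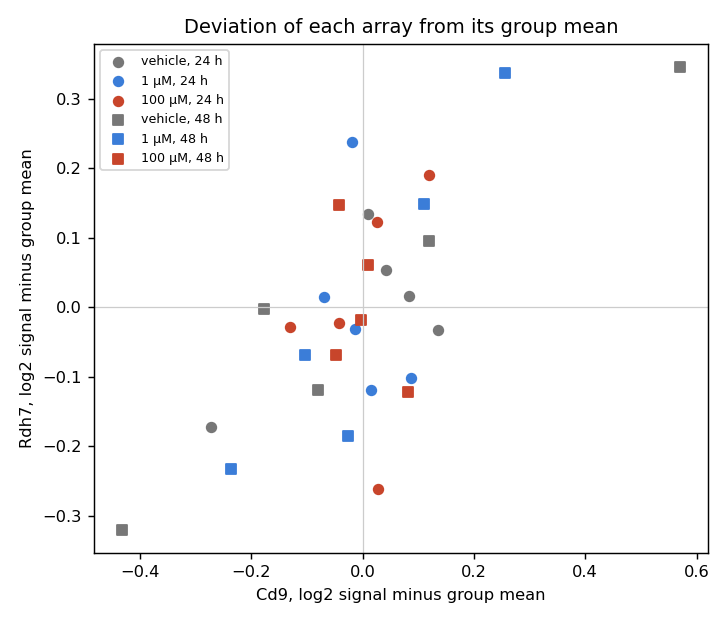
Deviation of each array from its group mean on the log2 scale, Cd9 on the horizontal and Rdh7 on the vertical axis, coloured by dose with circles for 24 h and squares for 48 h. Points rise from lower left to upper right (r = 0.69 over 30 arrays), with vehicle 48 h replicates 2 and 5 at the ends.

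Genes with related functions gave the 4 genes a setting. In the retinoid list, which holds enzymes, binding proteins and receptors of vitamin A metabolism, 34 of 37 genes other than Rdh7 were measured. At 100 µM and 24 h 12 fell and 1 rose, with a median log2 difference of -0.13 against 0.04 over all genes and 21.1% of all genes called. At 48 h 9 fell and 2 rose, with a median of -0.18 against 0.02, where 17.4% of all genes were called. Rdh16, a related retinol and sterol dehydrogenase, fell 1.86-fold and 2.71-fold at 24 and 48 h (limma adjusted p = 1.74e-07 and 1.14e-11). Dhrs3, which reduces retinal back to retinol, fell 2.40-fold and 2.01-fold (adjusted p = 1.15e-07 and 6.00e-06). Aldh1a1, which makes retinoic acid from retinal, fell 1.74-fold at both times (adjusted p = 7.71e-07 and 8.03e-07), and the retinoic acid receptor gene Rarb fell 1.76-fold and 1.67-fold (adjusted p = 1.03e-07 and 5.88e-07). Rdh14, another retinol dehydrogenase, rose 1.15-fold and 1.19-fold (adjusted p = 0.00104 and 8.49e-05), and Rdh11 rose 1.21-fold at 48 h (adjusted p = 0.000523). The called genes thus include enzymes that form retinal and enzymes that consume it.

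At 1 µM the retinoid genes called besides Rdh7 were Rdh16 (log2 difference -0.40, adjusted p = 0.0293) and Retsat, the retinol saturase (-0.19, adjusted p = 0.0487), at 24 h and Rdh16 (-0.51, adjusted p = 0.0142) at 48 h. These were singled out after their values were seen. At 24 h 2 of 34 measured genes were called (5.88%, against 4.3% of all genes), a share near that of all genes. At 48 h it was 1 of 34 (2.94%, against 0.809%). Over time in vehicle 9 of 34 were lower and 0 higher (26.5% called, against 17.2% of all genes), with a median of -0.20 against 0.0049 over all genes.

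In the list of tetraspanins and their partners 28 of 29 genes other than Cd9 were measured, and they changed in both directions. At 100 µM 3 rose and 5 fell at 24 h, and 7 rose and 5 fell at 48 h, with medians of -0.04 and 0.04 against 0.04 and 0.02 over all genes. The called share was 28.6% and 42.9%, against 21.1% and 17.4% of all genes. Cd82, a tetraspanin that restrains cell movement, rose 1.22-fold and 1.20-fold (adjusted p = 0.000162 and 0.000832) at 24 and 48 h. Igsf8, an immunoglobulin-family partner of Cd9, rose 1.41-fold and 1.54-fold (adjusted p = 0.0253 and 0.00515). At 48 h Tspan13 rose 1.53-fold (adjusted p = 0.000677) and Tspan3 1.14-fold (adjusted p = 0.0016), and at 24 h Tspan17 rose 1.13-fold (adjusted p = 0.0318). Cldn1, the tight junction protein that associates with tetraspanins, fell 2.38-fold and 3.01-fold (adjusted p = 2.44e-11 and 7.99e-14). Tspan7 fell 2.01-fold and 1.74-fold (adjusted p = 9.93e-05 and 0.00182), and the laminin-binding integrin chain Itga6 fell 1.49-fold and 1.27-fold (adjusted p = 3.79e-07 and 0.000748). Tspan12 fell 1.22-fold at 24 h (adjusted p = 0.00268), and Tspan8 fell 4.27-fold at 48 h (adjusted p = 2.60e-06). Of the other tetraspanins and partners, 0 of 28 had a 100 µM effect called different between the times (limma), a comparison that called 0.788% of all genes. At 1 µM 3 rose and 2 fell at 24 h, and 1 rose at 48 h (17.9% and 3.57% called, against 4.3% and 0.809% of all genes).

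Among imprinted genes 21 of 24 besides Mest were measured. At 100 µM 2 rose and 2 fell at 24 h, and 2 rose and 0 fell at 48 h. These shares, 19.05% and 9.52%, were below those of all genes, 21.1% and 17.4%, so the counts set nothing apart about the list. Impact, which restrains the amino acid stress kinase Gcn2, rose 1.71-fold and 1.70-fold (adjusted p = 0.00232 and 0.0033), and Grb10, an adaptor that dampens insulin signalling, rose 1.20-fold and 1.27-fold (adjusted p = 0.0463 and 0.0112). Gnas (1.09-fold; adjusted p = 0.00652) and Copg2, the gene next to Mest (1.11-fold; adjusted p = 0.0422), fell at 24 h. Over time in vehicle Impact and Grb10 rose too, 1.76-fold (adjusted p = 0.00192) and 1.28-fold (adjusted p = 0.00856). Of the list 2 genes rose and 1 fell in that comparison, a called share of 14.3% against 17.2% of all genes. The fetal growth genes Igf2, H19 and Dlk1 had log2 differences of 0.18, 0.53 and -0.01 at 100 µM and 48 h, with SE from 0.50 to 0.53, and did not pass; they are named after their values were seen.

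For Cd24 the list was of hepatic progenitor markers, 17 of 19 measured besides Cd24. At 100 µM 0 of these rose at either time (limma), while 2 fell at 24 h and 3 at 48 h. The called shares, 11.8% and 17.6%, were below and near those of all genes, 21.1% and 17.4%. Cdh1, E-cadherin, fell 1.60-fold and 1.43-fold (adjusted p = 1.79e-08 and 2.19e-06), Afp, the fetal liver protein, 1.23-fold and 1.27-fold (adjusted p = 0.01 and 0.00371), and Epcam, an epithelial adhesion molecule, 1.28-fold at 48 h (adjusted p = 6.57e-08). At 48 h the median of the list was 0.18 against 0.02 over all genes. Spp1 and Krt19, at low signals, were 0.84 (SE 0.58) and 0.73 (SE 0.68) higher at 48 h without passing, and are likewise named after their values were seen.

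**Figure D4:**
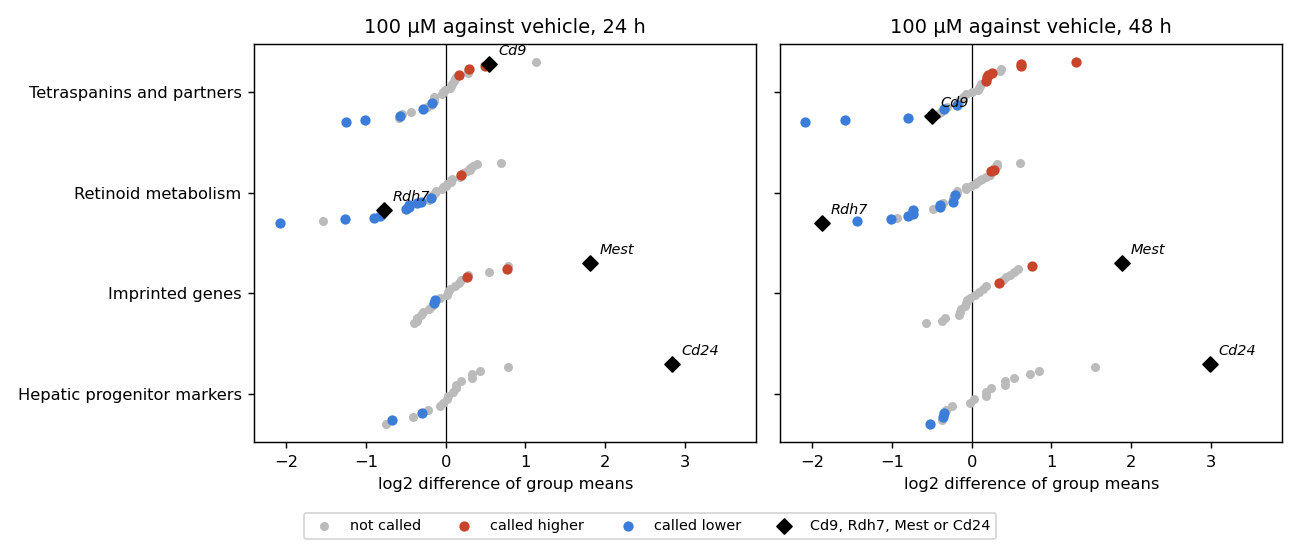
Log2 difference of each listed gene at 100 µM against vehicle at 24 h (left) and 48 h (right), spread vertically in rank order within its list. Genes called at an adjusted p of 0.05 are red (higher) or blue (lower), genes not called are grey, and black diamonds are the 4 genes themselves, shown without a test: Mest (1.82 and 1.89) and Cd24 (2.85 and 2.99) lie to the right of the rest of their lists at both times.

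The genes with the most similar profiles were found by the Pearson r of log2 signal over the 30 arrays, among 7106 genes above the median level. These r values are descriptions, since arrays share their groups. Rdh7 had the most close neighbours, 89 genes with r above 0.9 against 18 for Mest and 1 each for Cd24 and Cd9. The genes differed in spread: the SD of log2 signal in vehicle at 24 h was 1.32 for Cd24, 1.08 for Mest, 0.16 for Cd9 and 0.11 for Rdh7. The part of spread in these counts was not tested. The r values also include the arrays in vehicle and at the higher dose, which the choice of genes used. The closest to Rdh7 were Gpc4 (r = 0.98), Cyp2d2 (0.97), Igf1 (0.97), F9 (0.97) and Thrsp (0.97), and all 5 had lower means at each dose and over time. After group means were removed, r with Rdh7 was 0.87 for Igf1, 0.73 for Thrsp, 0.59 for Cyp2d2, 0.51 for Gpc4 and 0.44 for F9. The most opposite were Pgd (r = -0.95), an enzyme of the pentose phosphate pathway, and Slc17a3 (r = -0.95).

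Cd24 was most like Slc1a4 (r = 0.91), Slc7a11 (0.89), Tes (0.89), Zfand2a (0.89) and Ndrg1 (0.89). Slc1a4 and Slc7a11 are amino acid carriers, and their 100 µM differences at 48 h were 0.89 and 1.19 on the log2 scale. Within groups r with Cd24 was 0.10 to 0.47 for these 5 genes. The most opposite to Cd24 were Rgs16 (r = -0.92) and Hoga1 (r = -0.91).

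Mest resembled Septin11 (r = 0.94), Chordc1 (0.93), Sec13 (0.93), Ppic (0.92) and Chac1 (0.92), genes whose steps were smaller than those of Mest. Asgr1, the hepatocyte asialoglycoprotein receptor, was the most opposite to Mest (r = -0.95), followed by Rida (r = -0.93). Cd9 was closest to Exoc1 (r = 0.91), Fn1 (0.88), Hnrnpa1 (0.87), Rora (0.87) and C9h2orf49 (0.86). Their means were higher than vehicle at 100 µM and 24 h, by 0.29 for Exoc1, and lower at 48 h. The log2 differences at 48 h were -0.46 for Exoc1, -0.09 for Fn1, -0.11 for Hnrnpa1, -0.05 for Rora and -0.09 for C9h2orf49. In vehicle the changes from 24 to 48 h were -0.29, -0.46, -0.19, -0.53 and -0.16 in the same order. For all but Exoc1 the fall over time was the larger. These values are given without a test. The most opposite to Cd9 were Sirt5 (r = -0.86) and Plbd1 (r = -0.86).

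**Figure D5:**
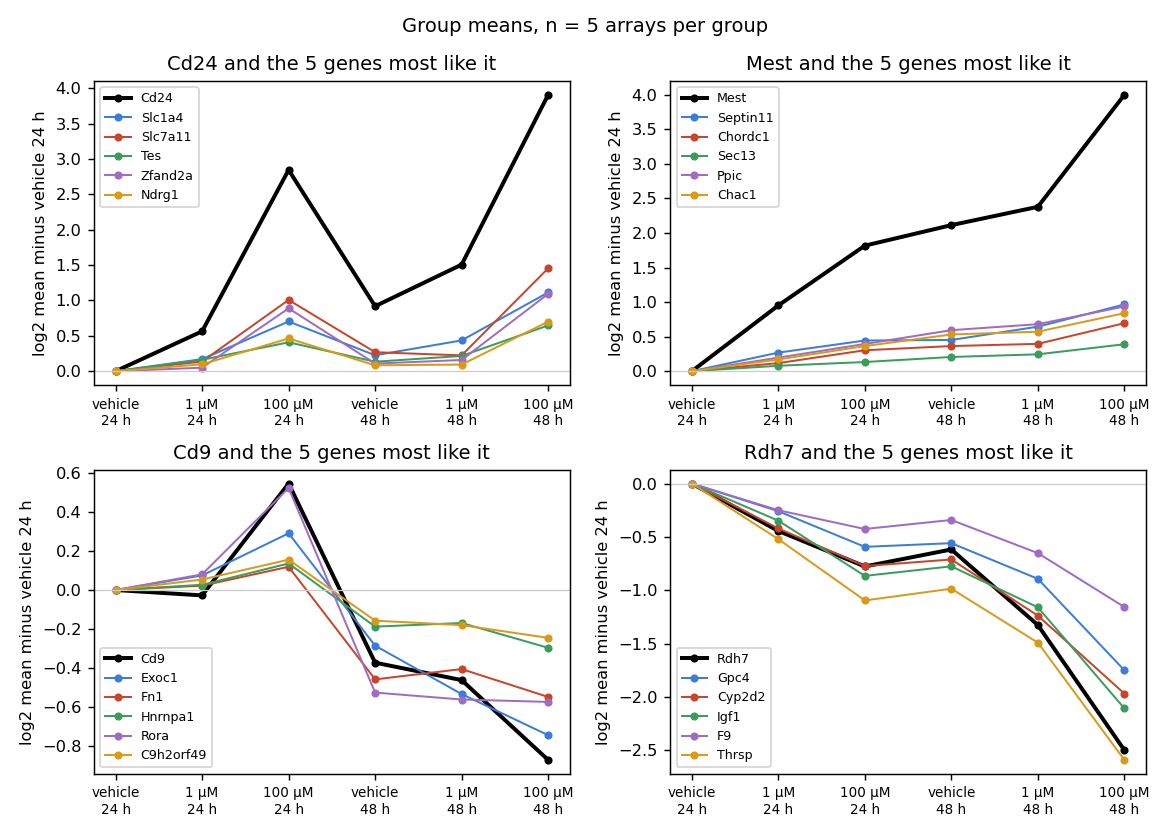
Group means of log2 signal relative to vehicle at 24 h (n = 5 arrays per group) for each of the 4 genes (thick black line) and the 5 genes with the highest r to it over 30 arrays. Cd24 and Mest reach 3.91 and 4.00 at 100 µM and 48 h, a larger rise than their neighbours, while Rdh7 at -2.50 lies within the range of its own.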

How the data were processed

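RNA of 30 wells of rat hepatocytes was labelled with biotin and hybridised to Affymetrix arrays, 1 per sample. The authors deposited linear intensities, 1 per probe set and array; MAS5 is the tool named in the submitters' processing notes, with no version. All arrays had a trimmed mean (2% at each end) between 1500.5 and 1500.6, so the authors had scaled them to a common level, which removes any shift common to most transcripts. The sources used here give no other step before deposit. Of 31099 probe sets, 57 controls were left out. A single symbol was annotated for 20826, more than 1 for 436, and no symbol for 9780. Symbols were updated by gene number (20758 matched, assembly GRCr8), and the probe set of highest mean log2 signal stood for each of 14217 genes. No column of another sample was used (0 present).

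Intensities were taken to log2 without a constant. All 30 arrays entered a single fit of 6 group means (24 residual degrees of freedom) in R 4.3.3 with limma 3.58.1 and eBayes with a mean-variance trend. Of 10 contrasts, those without 100 µM arrays were tested for the 4 genes. Benjamini-Hochberg adjustment ran over 14217 genes, with calls at 0.05. Folds are 2 to the power of the difference of log2 means. Deviations from group means were permuted within groups 100000 times, two-sided. The fit was tested on simulated data. The genes, the 4 lists of related genes and the 6 lists of cell type markers were chosen with earlier results of these data known. Named genes were all called genes up to 4 per list, direction and time with the smallest adjusted p at 100 µM, the 5 genes most like each of the 4 and the 2 most opposite, and Cyp1a1. Cell type markers are named beside a result whether or not they moved with it. Alternatives were median centring, quantile normalization, a constant of 32, no genes below the median signal, no trend, array number as a term, a fit of the groups compared, and each array left out. Replicate numbers follow sample order and only name an array. Figures were drawn with matplotlib 3.10.9.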

Additional observations from a re-analysis of the deposited data

Results flagged for a closer look

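Cd24 on 1 µM 24 h replicate 4 had a signal of 213 where the other 4 arrays of the group lay between 59.9 and 81.8. Its gap to the nearest array, on linear signals, was 0.857 of the range of the group, over the limit of 0.71 for 5 values. About 1 in 20 such groups is picked out by chance, and 24 groups were examined. Vehicle 24 h replicate 5, the Cd24 array at 12.1, had a gap of 0.659 on linear signals and was not flagged. On the log2 scale of the fit it lay at 3.60, with the others of its group between 6.21 and 6.72. The rule was not applied on that scale.

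The 100 µM effect on Cd9 pointed upwards at 24 h, with all 5 arrays above the vehicle mean, and downwards at 48 h, with all 5 below it. The difference between the effects was -1.04 on the log2 scale. It was not tested, because Cd9 was chosen for its change at 100 µM.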

How the results depend on the processing

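The calls of Rdh7 at 1 µM at both times, and those of Mest and Rdh7 over time in vehicle and of Mest, Cd9 and Rdh7 over time at 1 µM, held under each of the alternatives run for them. Among 370 values of the tested differences of the 4 genes under the alternatives, 347 kept direction and side of the threshold, 3 lost the call, 4 gained it and 16 changed sign. Of 370 values of the described differences 363 kept their sign and 7 did not. In a fit of only the groups compared, Cd9 over time in vehicle was -0.37 with adjusted p = 0.116, genes called at 1 µM and 48 h numbered 30, and those for the 1 µM effect between times 5. Median centring gave 396 calls at 1 µM and 24 h (51 higher and 345 lower, against 271 and 341 in the report's fit), 66 at 48 h (8 and 58, against 41 and 74), 1236 over time at 1 µM, 612 for 100 against 1 µM at 24 h, 47 for the 100 µM effect between times and 0 for the 1 µM effect between times (13 in the report's fit). It also moved the split at 100 µM and 24 h to 655 higher and 1486 lower, against 1523 and 1477, and that for 100 against 1 µM at 48 h to 1612 and 508, against 934 and 1050. The 1 µM effect between times had 23 calls after quantile normalization and 4 without the trend, and the 100 µM effect between times had 174 without dim genes. The cause was not tested.

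With each array left out in turn, differences at 1 µM and 24 h ran from -0.016 to 0.77 for Cd24, with the lowest without vehicle 24 h replicate 5, from 0.57 to 1.23 for Mest and from -0.10 to 0.0063 for Cd9, the highest also without that array. At 48 h Cd9 ran from -0.20 to 0.053, the highest without vehicle 48 h replicate 5. Over time Cd9 in vehicle ran from -0.52 to -0.26 and Cd24 at 1 µM from 0.80 to 1.26. The 1 µM effect between times ran from -0.18 to 0.60 for Cd24 and from -0.17 to 0.081 for Cd9, and the 100 µM effect between times from -0.059 to 0.72 for Cd24 and from -0.21 to 0.45 for Mest. Calls numbered 406 to 689 at 1 µM and 24 h, 46 to 153 at 48 h and 2 to 22 for the 1 µM effect between times. No paired analysis was possible because the replicate numbers only follow sample order. The alternative with another probe set was not run, since each of the 4 genes has 1, and Cd24 and Mest have no value without dim genes. Low signal limits both in vehicle at 24 h.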
